A study of Mus musculus with 8 samples.

Results

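RNA of red cell precursors and of platelets was followed through preparations of splenic mature B cells from Irf4 null mice (irf4-/-, n = 4 arrays) and from their wild-type littermates (irf4+/+, n = 4 arrays). The 33 genes were chosen from knowledge of both lineages, with earlier results of these data known. Of them 22 are erythroid, 10 belong to megakaryocytes and platelets, and Nfe2 is used by both. Shares of this list set beside those of all genes are therefore descriptions. All mice were of strain C57BL/6 and 12 weeks old, and the cells had been enriched by depleting other splenic mononuclear cells with magnetic beads, so erythroid and platelet cells were not what the preparation was meant to collect. The labels do not give the sex of the mice, the deleted part of Irf4, or whether the 4 arrays of a genotype stand for 4 separate mice, so a p-value reflects only how much these arrays vary, and part of that variation may be technical.

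Each gene was measured by the probe set (the group of oligonucleotides that reports 1 transcript) with the highest mean signal among those annotated to that gene alone. Such a probe set was found for 30 of the 33 genes. Hbb-b1, a beta globin, was measured only by a probe set shared with other beta globins, and Ahsp, the chaperone of free alpha globin, and Gp1ba, the ligand-binding chain of the platelet receptor for von Willebrand factor, have no single-gene probe set named here. The single-gene probe set of the alpha globin Hba-a1 read 4.06 to 9.63 and fell below the limit for testing, a limit set on the mean over all 8 arrays without regard to genotype. That left 29 genes for the test, among 11798 genes in all: 19 erythroid, 9 platelet, and Nfe2.

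Erythroblasts are the nucleated precursors of red cells. Under Gata1 and Klf1 they take up iron through the transferrin receptor, make haem and globin, build the spectrin and band 3 membrane skeleton, and then lose the nucleus, after which the reticulocyte still carries globin, Alas2 and membrane RNA. The mouse spleen makes red cells throughout life. Platelets are fragments of megakaryocytes that carry a stock of granule and receptor RNA and readily stick to leukocytes. In RNA of whole preparations, fewer cells of a type and less RNA per cell cannot be told apart.

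The preparations carried their labelled cell type. The summed signal of 7 of 8 B cell markers, among them Cd79b and Ms4a1, lay between 68284 and 81667 on all 8 arrays. Irf4 itself read 2035, 1719.9, 1779 and 2341 in wild type, against 285, 259, 244 and 315 in Irf4 null (log2 difference -2.76 ± 0.12, SE; limma, adjusted p = 4.6e-06). Xist, the RNA of the inactive X chromosome, was high (17119 to 19652) on Irf4 null array 1 and every wild-type array but the second, and low (49.2 to 94.8) on wild-type array 2 and the other 3 Irf4 null arrays. Eif2s3y, a gene of the Y chromosome, ran the other way, at 3216 to 4530 on the Xist-low arrays and 3.31 to 25.4 on the Xist-high arrays. By these RNAs the Xist-low arrays are male and the Xist-high arrays female. Sex is therefore unequal between the genotypes and partly confounded with them. Genotype results are given with and without a term for this split. With the term, Irf4 null array 1 and wild-type array 2 weigh heavily, since each is alone of its genotype within its Xist class.

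Erythroid RNA varied widely from array to array, and none of the 19 erythroid genes passed the test between genotypes. In the comparison as a whole 3.52% of probe sets passed in either direction (limma, adjusted p below 0.05 over 27022 probe sets), 2.01% upward and 1.51% downward. No erythroid gene reached even an unadjusted p below 0.05, where 20.4% of all genes tested did. In none of the 19 did the genotypes separate without overlap, against 10.8% of all probe sets (5.48% with Irf4 null above, 5.33% with Irf4 null below). The log2 difference between Irf4 null and wild type was positive for 16 of the 19 (84.2%, against 54.6% of all genes tested), with a median of 0.22 against 0.02 over all genes tested. That median became -0.19 without Irf4 null array 3, and -0.15, with 5 of 19 positive, when the fit held a term for Xist. No erythroid gene passed with that term either, against 2.36% of probe sets in either direction. The 95% intervals were wide: for Slc4a1 from -1.64 to 2.02, for Alas2 from -1.73 to 1.80, and at the narrowest, for Urod, from -0.36 to 0.34.

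**Figure D1:**
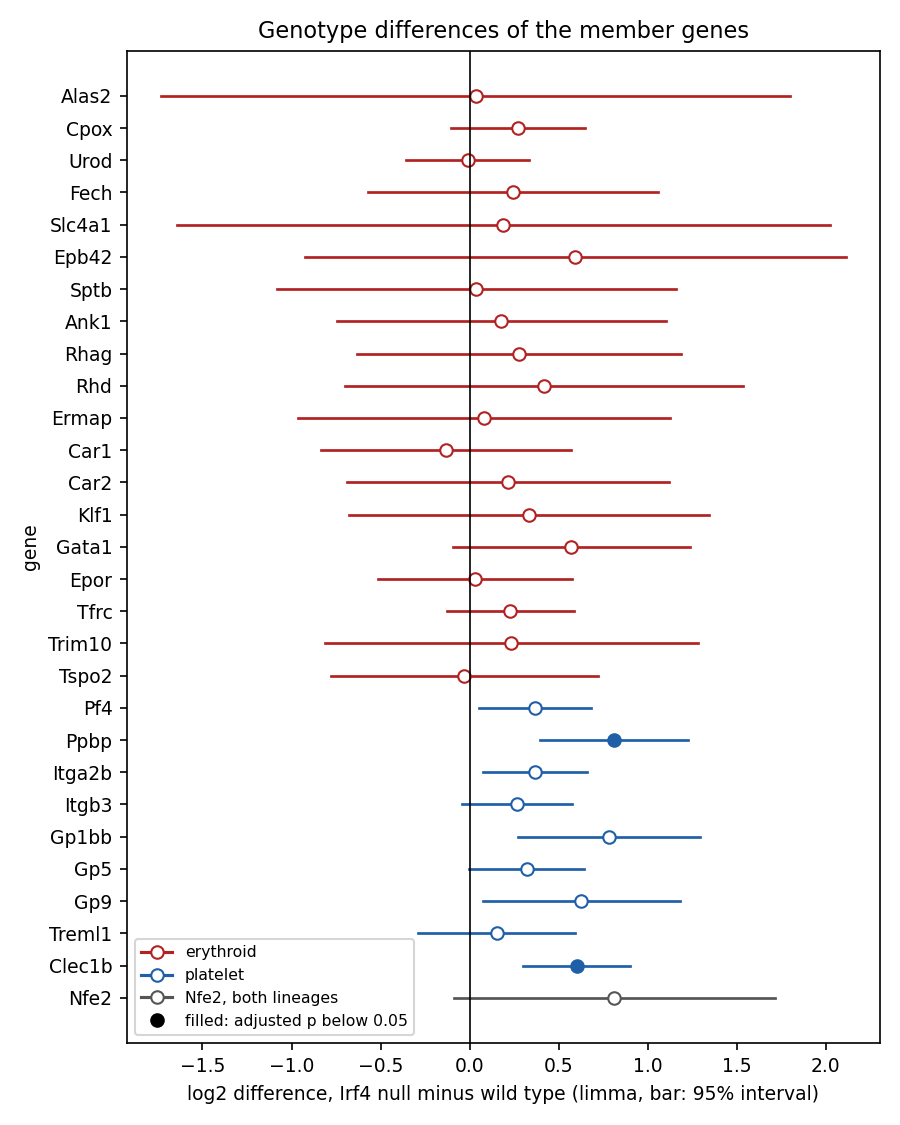
Log2 difference, Irf4 null minus wild type, of the 29 tested genes with its 95% interval (limma, 4 arrays a genotype); filled points have an adjusted p below 0.05. The intervals of the 19 erythroid genes all include 0, and among the 9 platelet genes Ppbp and Clec1b are filled.

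What stood out was the spread within each genotype. Irf4 null array 3 was the highest of the 8 arrays for 17 of the 19 erythroid genes, where it was the highest for 13.4% of all genes tested. The exceptions were Car1, highest on wild-type array 2, and Sptb, highest on Irf4 null array 4. Irf4 null array 4 was the lowest for 9 of the 19, against 14.2% of all genes, and lay below every wild-type array for 10. Within wild type, array 2 was the highest for 15 of the 19, against 31.8% of all genes. The SD of log2 values was larger among Irf4 null arrays for 17 of the 19 genes, against 45.6% of all genes, with a median SD of 0.85 in Irf4 null and 0.52 in wild type, where both were near 0.17 to 0.18 over all genes. As mean log2 differences from the wild-type mean over the 19 genes, the wild-type arrays stood at -0.37, 0.47, -0.29 and 0.19 and the Irf4 null arrays at -0.33, 0.24, 1.40 and -0.52. The genes share arrays and are not independent counts of an effect.

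**Figure D2:**
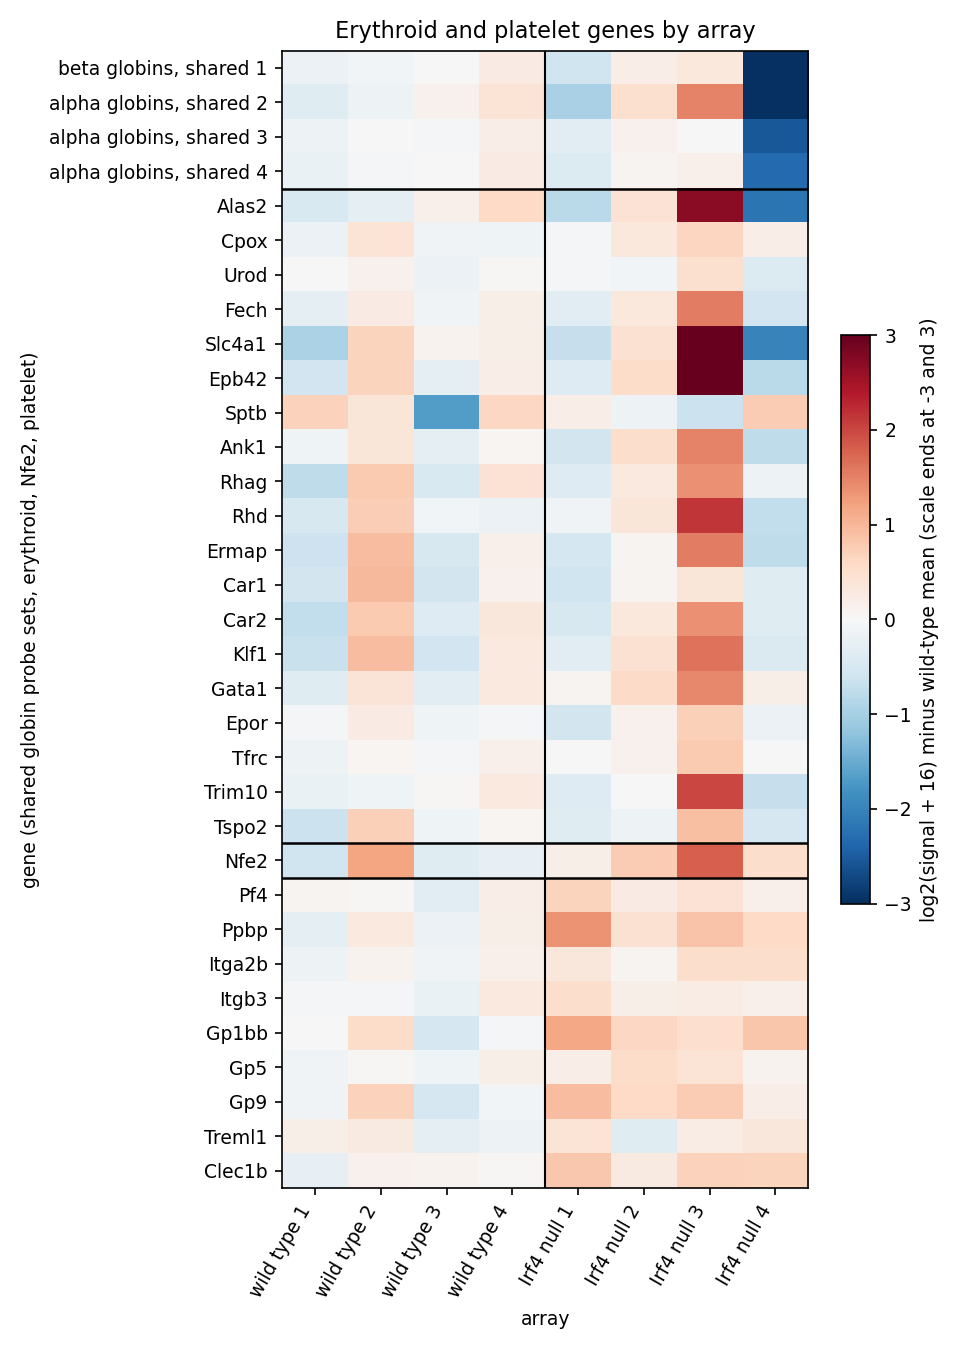
Each tile is log2(signal + 16) of 1 gene on 1 array minus that gene's wild-type mean; the 4 top rows are globin probe sets shared by several genes, and the ends of the colour scale stand for values at or past -3 and 3. The erythroid rows are darkest red on Irf4 null array 3 and the globin rows are dark blue on Irf4 null array 4, while the platelet rows are mostly pale red across the 4 Irf4 null arrays.

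Globin RNA, the main product of late erythroblasts and reticulocytes, was abundant in these preparations. The beta globin probe set shared by Hbb-bt, Hbb-bs, Hbb-b2 and Hbb-b1 read 17430.5, 18702, 19528 and 23488 in wild type, against 12963, 22654, 24480 and 2466 in Irf4 null. Irf4 null array 4 held 12.5% of the wild-type mean, Irf4 null array 1 also lay below the wild-type range, and Irf4 null array 3 just above it. An alpha globin probe set shared by Hba-a2 and Hba-a1 read 4177, 4807, 5866 and 7108 in wild type, against 2741, 7462, 15115 and 352 in Irf4 null, so its Irf4 null array 4 was at 6.41% of the wild-type mean and its Irf4 null array 3 at 2.75 times that mean. Between those 2 arrays of the same genotype the signal differed 43.0-fold. Both other alpha globin probe sets stood at 17.1% and 19.8% of their wild-type means on Irf4 null array 4 but read 22733 and 24882 on Irf4 null array 3, within the wild-type range of 19597 to 26753 of the pair; these are the brighter probe sets, and a ceiling on their signal was not tested. The log2 differences between genotypes of the 4 shared probe sets ran from -0.77 to -0.62, with standard errors of 0.44 to 0.88 and adjusted p of 0.52 to 0.74 (limma). Single-gene globin probe sets were dim and disagreed. The brighter one of Hbb-b2 had its highest value on Irf4 null array 3 and its lowest on Irf4 null array 4, with 178, 131, 198 and 214 in wild type, against 79.1, 358, 889 and 5.86 in Irf4 null, where Irf4 null array 4 was at 3.25% of the wild-type mean. The other one of Hbb-b2 was highest on wild-type array 3 and lowest on Irf4 null array 2, and that of Hba-a2 highest on Irf4 null array 2 and lowest on wild-type array 4, with Irf4 null array 4 at 75.2% and 102% of their wild-type means.

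Among the haem enzymes, the erythroid one varied most. Alas2, the erythroid enzyme that starts haem synthesis, read 174, 195, 274 and 378 in wild type, against 133, 335, 1689.95 and 40.8 in Irf4 null. The Irf4 null values lay both above and below the whole wild-type range, and Irf4 null arrays 3 and 4 differed 41.4-fold (log2 difference between genotypes 0.03 ± 0.80, adjusted p = 0.989, limma). Fech, which inserts iron into the ring, read 938, 1366, 1069.9 and 1298 in wild type, against 924, 1444, 3394 and 772 in Irf4 null, with a 4.40-fold gap between the same arrays. Cpox and Urod, enzymes of the middle steps that most cells also use, varied less. Cpox differed 1.38-fold and Urod 1.87-fold between Irf4 null arrays 3 and 4. Cpox read 907 on wild-type array 2, apart from its other wild-type values of 594 to 625.

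Genes of the red cell membrane spread widely too, with Irf4 null array 3 highest for 6 of the 7. Slc4a1, the band 3 anion exchanger, read 466, 1456, 992 and 1033 in wild type, against 563, 1253, 7415 and 216 in Irf4 null. Irf4 null array 3 stood at 7.52 times the wild-type mean and Irf4 null array 4 at 21.9% of it. Epb42, protein 4.2, which binds band 3, read 33.3, 102, 43.8 and 68.4 in wild type, against 40.1, 91.3, 580.4 and 26.2 in Irf4 null, a 22.2-fold gap between Irf4 null arrays 3 and 4. Rhd, a blood group protein of the Rh complex, read 234, 566, 312 and 293 in wild type, against 307, 432, 1529.9 and 194 in Irf4 null. Its partner Rhag, Ermap, an erythroid surface protein, and Ank1, the ankyrin that ties band 3 to spectrin, had the same highest array, with gaps of 3.03-fold, 5.12-fold and 5.46-fold between Irf4 null arrays 3 and 4.

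Sptb, beta spectrin, was the exception among membrane genes. Its probe set read 93.7, 72.1, 5.14 and 88.7 in wild type, against 62.1, 44.8, 27.5 and 99.1 in Irf4 null, with no peak on Irf4 null array 3. A dimmer Sptb probe set, which fell below the limit for testing, read 67.6 on that array, its highest value, so the probe sets of this gene disagree. A dimmer tested probe set of Ank1 was highest on wild-type array 2 (68.8, against 48.7 on Irf4 null array 3). One of Fech was highest on wild-type array 3 (139, against 124). The remaining probe sets of Ank1 and Fech were highest on Irf4 null array 3.

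The 6 regulators and receptors of the lineage were all highest on Irf4 null array 3. Klf1, the activator of adult beta globin and many red cell genes, read 299, 937, 321 and 594 in wild type, against 382, 667, 1521 and 354 in Irf4 null. Gata1, the main transcription factor of the lineage, which megakaryocytes also use, read 85.2, 155, 88.6 and 145 in wild type, against 123, 180.1, 338 and 132 in Irf4 null (0.57 ± 0.30, adjusted p = 0.376, limma), the smallest adjusted p of the 19. Trim10, a late erythroid protein, read 140.5, 149, 167 and 205 in wild type, against 122, 165, 708 and 94.96 in Irf4 null. Epor, the erythropoietin receptor, differed 1.97-fold between Irf4 null arrays 3 and 4, Tspo2, an erythroid membrane protein of the translocator family, 2.93-fold, and Tfrc, the transferrin receptor of all dividing cells, 1.73-fold. The carbonic anhydrases, which turn carbon dioxide into bicarbonate in red cells, were bright. Car2 read 2465, 7111, 3166 and 5208 in wild type, against 2966, 5111, 10762 and 3223 in Irf4 null. Car1 read 1534, 4449, 1541 and 2457 in wild type, against 1476, 2395, 2883 and 1752 in Irf4 null, so its highest value was in wild type.

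The size of these steps differed from gene to gene, and the pairs of arrays compared here were chosen after the values were seen. From wild-type array 1 to wild-type array 2 the ratios of the 19 erythroid genes ran from 0.77 to 3.17, with values in between. Rhag, Klf1, Slc4a1 and Epb42 stood at 3.17, 3.13, 3.12 and 3.05, Ermap close behind, Car1, Car2, Tspo2 and Rhd at 2.90, 2.88, 2.83 and 2.42, and Gata1, Cpox, Fech and Ank1 at 1.82, 1.53, 1.46 and 1.44. Epor, Tfrc, Alas2, Urod and Trim10 stood at 1.27, 1.15, 1.12, 1.08 and 1.06, and Sptb at 0.77. The shared beta globin probe set read 18702 on wild-type array 2 against 17430.5 on wild-type array 1. On Irf4 null array 4 the 4 shared globin probe sets were at 6.41% to 19.8% of their wild-type means, Alas2 within that range, Slc4a1 at 21.9% and Epb42 at 42.3%. Between these and the wild-type level came Ermap, Ank1, Rhd, Trim10 and Tspo2 at 52.6% to 63.1%, Klf1, Fech, Car1, Car2 and Urod at 65.7% to 74.5%, and Rhag and Epor at 80.2% and 87.1%. Tfrc, Gata1, Cpox and Sptb were at 100.1%, 111%, 113% and 153%. By role, that array lay 0.75 log2 units below the wild-type mean for the 4 haem genes and 0.64 for the 7 membrane genes, below every wild-type array. It lay 0.36 below for both anhydrases and 0.27 for the 6 regulators and receptors. These were within the wild-type range, since wild-type array 1 stood at -0.65 and -0.35. On Irf4 null array 3 the same 4 groups were 1.34, 1.70, 0.87 and 1.25 log2 units above the wild-type mean. For the anhydrases wild-type array 2 was as high, at 0.88.

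Markers of other cells moved with these arrays, and their part in the result was not tested. The summed signal of 7 of 10 T cell markers was highest on Irf4 null array 3 (8777, against 1309 to 3413 on the other Irf4 null arrays and 929.9 to 2212 in wild type), as was that of 7 of 8 NK cell markers (12042, against 2275 to 9049 on the other 7 arrays). That of 11 of 12 neutrophil markers was highest on Irf4 null array 2 (77796) and wild-type array 2 (55962), and ranged from 5946 to 55962 in wild type and from 11231 to 77796 in Irf4 null. Over 9 of 10 monocyte and macrophage markers the sum was 10802 to 36902 in wild type, against 15674 to 32640.3 in Irf4 null, and over 5 of 7 markers of red pulp macrophages, the cells that clear old red cells, 884 to 3018 and 1002 to 3074. The sum of 13 of 14 cell cycle genes was 8947 to 18617 in wild type, against 12748 to 23609 in Irf4 null. On Irf4 null array 4, the lowest in erythroid RNA, neutrophil and cell cycle genes were 1.11 and 0.87 log2 units above wild type. Sums over 6 of 7 dendritic cell markers were 1207 to 2227 in wild type, against 1741 to 2636 in Irf4 null, over 4 of 5 mast cell and basophil markers 187 to 1001 and 236 to 625, over 3 of 6 progenitor markers 459.8 to 918 and 434 to 756, and over 2 of 6 stromal markers 492 to 785 and 519 to 683. The sums cover the markers bright enough to be tested. No marker with a probe set was at 0 on any array, but without detection calls this does not show that each was present.

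**Figure D3:**
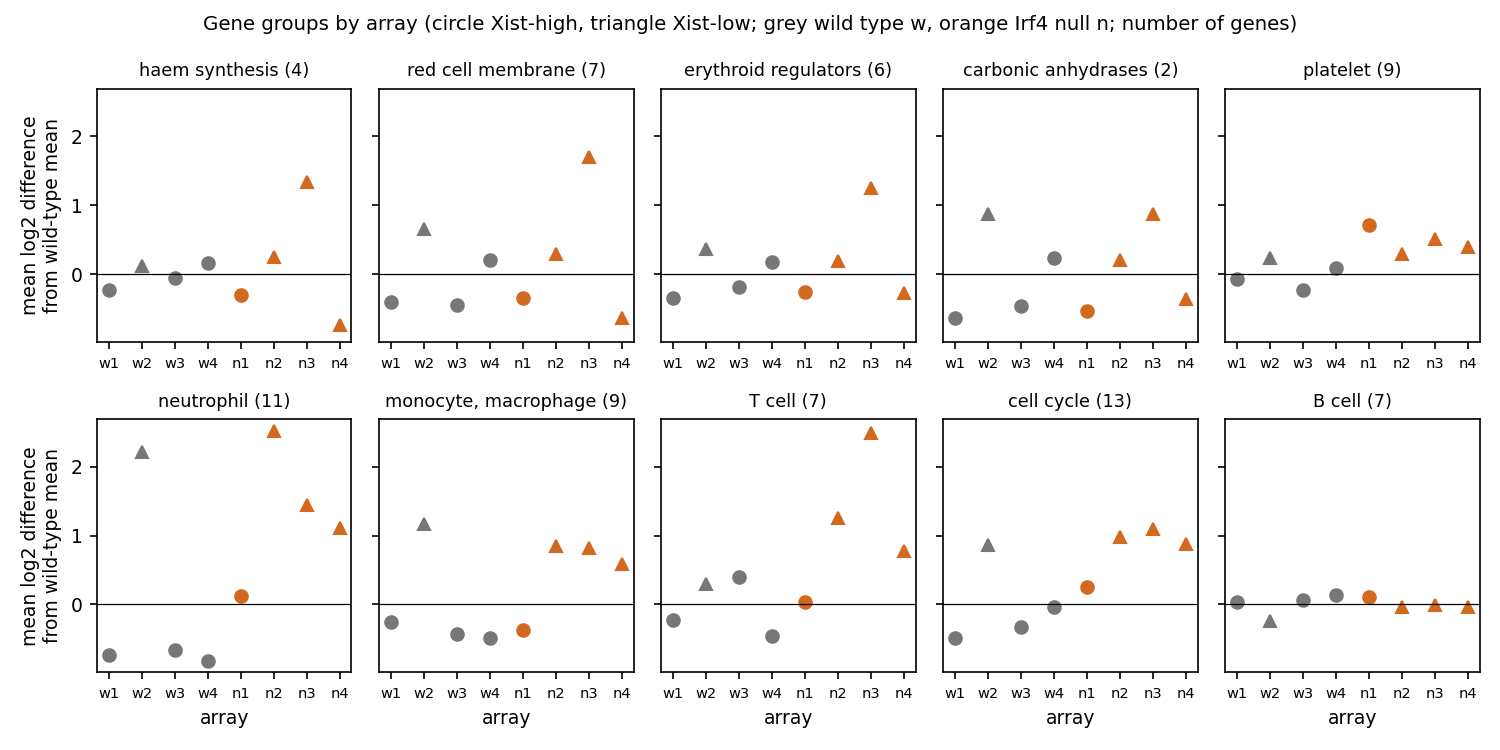
Mean log2 difference from the wild-type mean for 10 gene groups, 1 point per array (w, wild type; n, Irf4 null; circles Xist-high, triangles Xist-low; number of genes in brackets). The 4 erythroid groups are below 0 on Irf4 null array 4, the anhydrases and regulators within the wild-type range. Neutrophil, T cell and cell cycle groups are above 0 on that array. The platelet group is highest on Irf4 null array 1, where the neutrophil group is near 0.

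The promoters of erythroid genes are shown because 17 of the 19 tested were highest on the same array, Irf4 null array 3. Over the other arrays these genes did not share 1 order. Their usual control letters are known: GATA factors bind GATA with A or T before it and A or G after it, and Klf1 binds CACCC elements. RefSeq windows of GRCm38.p6 were matched for 24 of the 33 genes, and the 250 bases before the start were searched on both strands. A GATA element (AGATAA, or AGATAG, or either with T as its first base) lay in 10 of 15 erythroid windows and in 26.5% of all 32851 windows. The GATA spellings were widened after the promoters were seen, so this count is a description only. The CACCC letters CCACCC lay in 9 of 15 erythroid windows and in 28.1% of all. The letters TGANTCA, searched as a loose form of the NF-E2 element with any base at N, lay in 1 of 15, that of Trim10, and in 6.75% of all. A match describes letters and is neither a binding site nor a cause. The 100 bases before the start of Alas2, Klf1 and Rhag, from haem synthesis, regulators and membrane, follow 5′ to 3′ on the gene's strand, with GATA and CACCC letters of either strand in capitals. The build is that of the RefSeq table.

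Alas2, chrX:150547317-150547416 (+): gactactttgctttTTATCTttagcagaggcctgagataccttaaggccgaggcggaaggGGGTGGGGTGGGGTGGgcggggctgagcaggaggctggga

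Klf1, chr8:84901882-84901981 (+): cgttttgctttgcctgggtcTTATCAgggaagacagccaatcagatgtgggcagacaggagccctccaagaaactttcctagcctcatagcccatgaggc

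Rhag, chr17:40811049-40811148 (+): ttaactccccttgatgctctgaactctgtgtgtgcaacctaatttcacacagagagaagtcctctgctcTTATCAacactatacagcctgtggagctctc

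Platelet RNA varied less between arrays of a genotype, and the granule chemokine Ppbp and the receptor Clec1b were higher in Irf4 null preparations. Of the 9 platelet genes tested, 2 passed the test and both rose (22.2%). In the whole comparison 2.67% of genes tested and 2.01% of probe sets passed upward. At an unadjusted p below 0.05 there were 6 of the 9 (66.7%), against 20.4% of all genes tested. All 9 log2 differences were positive, where 54.6% of genes tested and 50.6% of probe sets were. Their median was 0.37, against 0.02 over all genes tested. The mean log2 difference from the wild-type mean over the 9 genes was -0.07, 0.23, -0.23 and 0.08 on the wild-type arrays and 0.71, 0.29, 0.51 and 0.39 on the Irf4 null arrays. In this mean every Irf4 null array stood above every wild-type array. Over the 25 further platelet genes tested, described below, that did not hold. There wild-type array 2 stood at 0.28, above Irf4 null arrays 2 and 4 at 0.23 and 0.09. Irf4 null array 1 was the highest for 7 of the 9 genes, against 11.4% of all genes, and above every wild-type array for all 9. The median SD was 0.23 in both genotypes. A positive difference was also found for every tested T cell (7), NK cell (7), neutrophil (11) and cell cycle (13) marker. Their medians were 1.14, 0.92, 1.32 and 0.85, so a shared rise was not particular to platelet genes. With the Xist-high term these medians were 0.62, 0.27, 0.20 and 0.33, against 0.46 for the platelet genes. That fit leans on Irf4 null array 1, the highest in platelet RNA, as the only Xist-high array of Irf4 null. Monocyte and macrophage markers were mixed (7 of 9 positive), as were B cell markers (4 of 7).

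**Figure D4:**
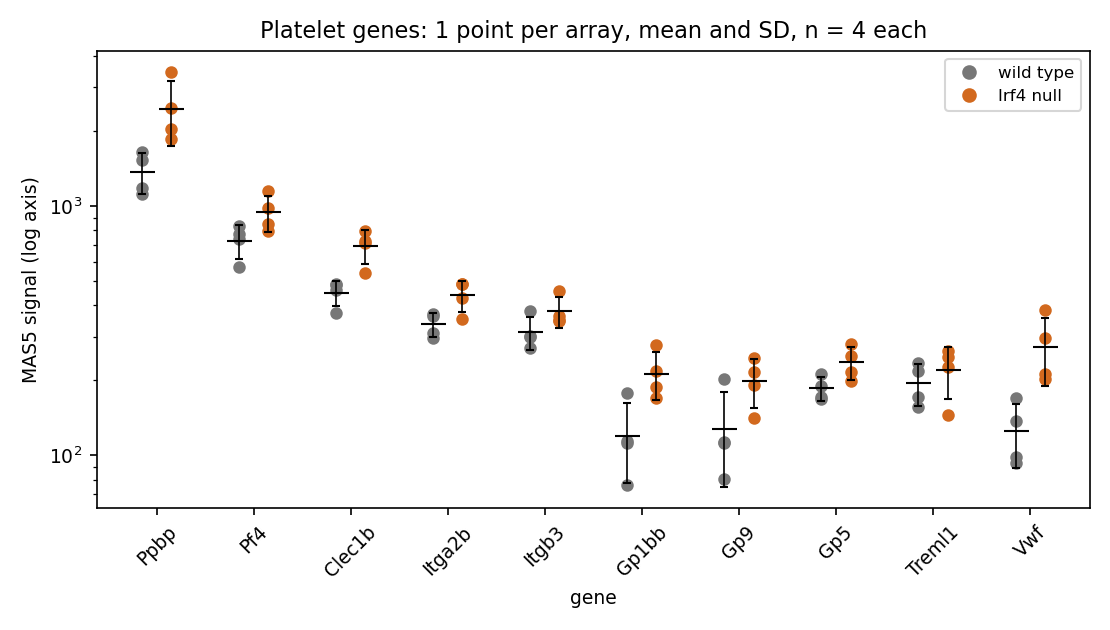
MAS5 signal on a log axis of the 9 platelet genes and Vwf, 1 point per array, with mean and SD (n = 4 a genotype); the levels of different genes cannot be compared. The Irf4 null points of Ppbp, Clec1b and Vwf lie above all wild-type points, and the other 7 genes overlap.

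The stored chemokines came first. Ppbp, which platelets release from alpha granules and which yields a neutrophil attractant, read 1123, 1654, 1189 and 1528 in wild type, against 3473, 1859.96, 2476 and 2046 in Irf4 null. The genotypes did not overlap. Irf4 null lay above in this way for 841 of 11798 genes tested and 5.48% of all probe sets. Ppbp rose by 0.81 ± 0.19 (SE, limma, adjusted p = 0.0415), higher on 4 of 4 Irf4 null arrays. Pf4, platelet factor 4, the gene next to Ppbp on the chromosome, read 771, 736, 571 and 835 in wild type, against 1148, 851, 982 and 797 in Irf4 null. The highest wild-type value exceeds the lowest Irf4 null value, and Pf4 did not pass (0.37 ± 0.14, adjusted p = 0.21, limma).

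Among receptors, Clec1b, the podoplanin receptor CLEC-2 of platelets, read 373, 487, 481 and 459.9 in wild type, against 793, 542, 728 and 715 in Irf4 null. It rose by 0.60 ± 0.14 without overlap (SE, limma, adjusted p = 0.0368). Treml1, a receptor held in alpha granules, read 218, 234, 157 and 171 in wild type, against 263, 145, 227 and 248 in Irf4 null, where the Irf4 null range encloses the wild-type range (0.15 ± 0.20, adjusted p = 0.764, limma). Clec1b thus separated the genotypes and Treml1 did not, but the difference between the genes was not tested.

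The calls of Ppbp and Clec1b were close to the threshold. With the Xist-high term 1.41% of probe sets passed upward and no platelet gene did. Adjusted p became 0.055 for Ppbp and 0.0702 for Clec1b, while their log2 differences were 0.90 and 0.63. Within the Xist-low arrays the differences were 0.35 and 0.42, but these set 3 Irf4 null arrays against 1 wild-type array and are given as values only. Both calls were lost when wild-type array 1, 3 or 4 or Irf4 null array 1, 3 or 4 was left out (adjusted p of 0.0629 to 0.125 for Ppbp and 0.0691 to 0.109 for Clec1b) and kept without wild-type array 2 (0.0161 and 0.0226) or Irf4 null array 2 (0.0419 and 0.0199). Without wild-type array 2, Gp1bb and Gp9 passed too (adjusted p = 0.0169 and 0.0309, limma), and with array weights Gp1bb did (adjusted p = 0.0338).

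Genes of the von Willebrand factor receptor complex had positive differences and did not pass with all arrays weighted equally. Gp1bb, its beta chain, read 114, 178, 76.2 and 112 in wild type, against 277, 187, 170.1 and 218 in Irf4 null (0.78 ± 0.23, adjusted p = 0.1, limma). Its lowest Irf4 null value was under wild-type array 2 and above the other wild-type arrays. Gp9 read 112, 203, 80.7 and 113 in wild type, against 245, 192, 217 and 141 in Irf4 null (0.63 ± 0.25, adjusted p = 0.226, limma). A dimmer probe set of Gp1bb read 49.8 to 79.6 in wild type, against 64.8 to 112 in Irf4 null, with a log2 difference of 0.23 against 0.78 for the brighter one. Gp5, the chain cleaved by thrombin, read 168 to 213 in wild type, against 199.8 to 280.2 in Irf4 null (0.32 ± 0.15, adjusted p = 0.295, limma).

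Both chains of the fibrinogen receptor were measured. Itga2b read 297, 362, 311 and 371 in wild type, against 428, 354, 486 and 487 in Irf4 null (0.37 ± 0.13, adjusted p = 0.179, limma). Itgb3 read 303, 298, 269 and 381 in wild type, against 456, 350.0, 362 and 345 in Irf4 null (0.27 ± 0.14, adjusted p = 0.373, limma). For each, 1 wild-type array or more overlapped the Irf4 null range.

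The promoters of 9 platelet genes were searched in the same way, together with the ETS letters GGAAGT, bound by factors such as Fli1 that work in megakaryocytes. ETS letters lay in 5 of 9 platelet windows, 2 of 15 erythroid windows and 19.7% of all windows. GATA elements lay in 4 of 9 platelet windows, CACCC letters in 2 of 9 and the loose NF-E2 letters in 2 of 9. The 100 bases before the start are shown for Ppbp and Clec1b, the genes that rose, and for Pf4, the neighbour of Ppbp, with ETS letters in capitals. The stretch of Clec1b holds none of the 4 motifs.

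Ppbp, chr5:90768418-90768517 (+): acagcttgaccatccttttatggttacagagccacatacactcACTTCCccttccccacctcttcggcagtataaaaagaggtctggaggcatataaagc

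Pf4, chr5:90772335-90772434 (+): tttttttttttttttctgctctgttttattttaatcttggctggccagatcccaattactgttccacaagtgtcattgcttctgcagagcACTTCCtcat

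Clec1b, chr6:129397197-129397296 (+): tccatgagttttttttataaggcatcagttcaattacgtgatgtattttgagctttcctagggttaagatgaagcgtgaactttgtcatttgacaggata

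Nfe2, the transcription factor subunit that drives globin expression in erythroblasts and platelet release in megakaryocytes, shared features of both classes. It read 128, 474, 153 and 167 in wild type, against 228, 348, 739 and 293 in Irf4 null. Its highest array was Irf4 null array 3, as for most erythroid genes, and 3 of 4 wild-type arrays lay below every Irf4 null array, with wild-type array 2 above all but 1 of them. The log2 difference was 0.81 ± 0.41 (adjusted p = 0.351, limma). It was 1.21 without wild-type array 2 (adjusted p = 0.0402), and 0.21 with Xist-high as a term.

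Set against each other on the same array, the classes did not follow one order. Erythroid minus platelet level, as a difference of mean log2 values relative to wild type, was -0.30, 0.25, -0.06 and 0.11 on the wild-type arrays and -1.04, -0.05, 0.88 and -0.91 on the Irf4 null arrays. Irf4 null array 1 had the most platelet RNA and less erythroid RNA than the wild-type mean, Irf4 null array 4 the least erythroid RNA with platelet RNA 0.39 log2 units above wild type, and Irf4 null array 3 was high in both. The Irf4 null mean of this difference was -0.28, with an SD of 0.89 over the 4 Irf4 null arrays and 0.23 over the wild-type arrays. It was -0.02 without Irf4 null array 1, -0.07 without Irf4 null array 4 and -0.67 without Irf4 null array 3. The 3 arrays with the most erythroid RNA were Xist-low, and so was the array with the least. On Irf4 null array 1, the array with the most platelet RNA, the summed signal was 11231 for neutrophil markers and 1309 for T cell markers, both the lowest of the Irf4 null arrays.

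**Figure D5:**
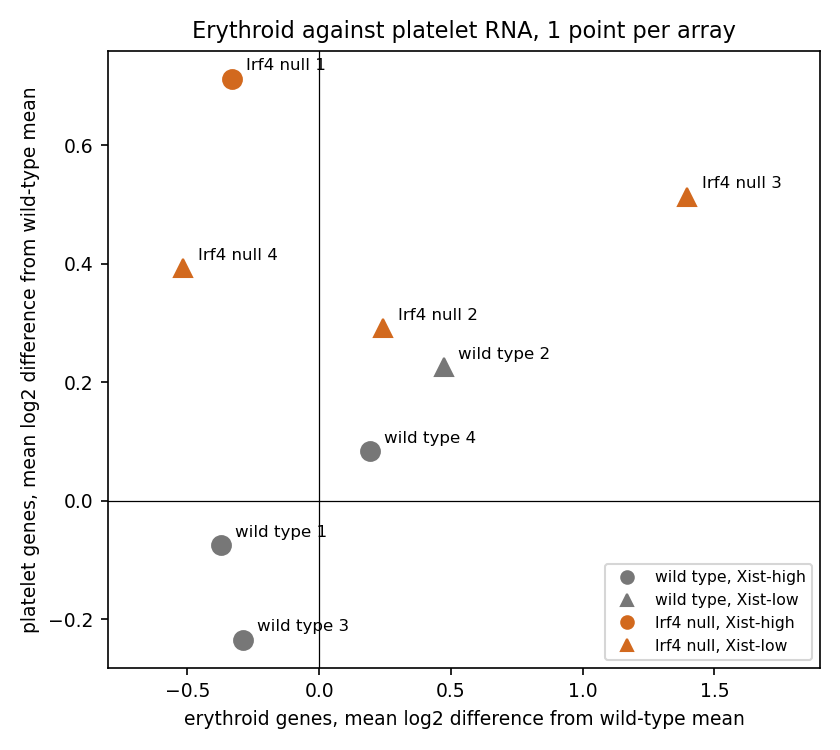
Mean log2 difference from the wild-type mean over 19 erythroid genes (x axis) and 9 platelet genes (y axis), 1 point per array, grey wild type and orange Irf4 null, circles Xist-high and triangles Xist-low. The Irf4 null points lie above all wild-type points on the y axis (0.29 to 0.71 against -0.23 to 0.23) and on both sides of them on the x axis (-0.52 to 1.40 against -0.37 to 0.47).

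Further genes of both lineages were read from lists drawn up beside the members. Of 51 further erythroid genes 42 were tested, 1 rose and none fell (2.38% higher, where 2.67% of all genes tested were), 28 differences were positive (66.7%, against 54.6% of all genes), and the median was 0.09. At an unadjusted p below 0.05 there were 12, or 28.6%, against 20.4% of all genes. The gene that rose was Zfpm1 (FOG-1), the partner of Gata1, which megakaryocytes and other blood cells also express: it read 323, 397, 281 and 339 in wild type, against 435, 591, 673 and 499 in Irf4 null (0.68 ± 0.15, adjusted p = 0.0353, limma). The Xist-high term ended that call (0.50, adjusted p = 0.107). Leaving out any of wild-type arrays 1, 3 and 4 or Irf4 null arrays 2, 3 and 4 ended it too (adjusted p of 0.0754 to 0.106). Of the 15 haem and globin genes none passed, and the smallest adjusted p belonged to Uros, an enzyme of haem synthesis (0.43 ± 0.12, adjusted p = 0.0766, limma), and to the mitochondrial carrier Slc25a39 (0.35 ± 0.12, adjusted p = 0.167, limma). Of the 13 membrane genes none passed, and the smallest belonged to Cd59a, an inhibitor of complement (0.79 ± 0.25, adjusted p = 0.118, limma), and Gypc, glycophorin C (0.39 ± 0.13, adjusted p = 0.131, limma).

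Of 33 further platelet genes 25 were tested, 1 rose and none fell, with 18 positive differences (72.0%, against 54.6% of all genes) and a median of 0.26. Without overlap, Irf4 null lay above wild type for 2 of the 25 and below for 1, against 841 and 674 of 11798 genes. The 1 call is 4.0% of the list, where 2.67% of all genes were called higher, and the 6 at an unadjusted p below 0.05 are 24.0%, against 20.4% of all genes. These shares of both lists lie near those of all genes. Of the 6 platelet genes, Selp and Fli1 had negative differences (-0.35 ± 0.16 and -0.37 ± 0.13, adjusted p = 0.286 and 0.154, limma). Vwf, Tubb1, Gng11 and Thbs1 had positive ones. The gene with Irf4 null below wild type without overlap was Selp. Vwf, von Willebrand factor, made by megakaryocytes and endothelium, read 93.7, 169, 98.7 and 138 in wild type, against 382, 202, 297 and 213 in Irf4 null. It rose by 1.03 ± 0.23 without overlap (SE, limma, adjusted p = 0.0383) and, like Ppbp and Clec1b, was highest on Irf4 null array 1. With Xist-high as a term its difference was 1.05 and the adjusted p 0.0793. Without any 1 of the arrays other than wild-type array 2 the adjusted p was 0.051 to 0.114, and without wild-type array 2 it was 0.0115.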

How the data were processed

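Total RNA (6 µg, per the labels' protocols) of 8 preparations was hybridised to 1 Affymetrix mouse array each. The deposited values are intensities computed by the authors with MAS5, per the submitters' processing notes, and the mean without the outer 2% of probe sets is 500.003 on every array. Neither the MAS5 version nor its target level is given in the sources used here. Of 45101 probe sets, 34958 have 1 gene symbol, 932 several and 9211 are unnamed here; 34754 symbols were matched to RefSeq (GRCm38.p6) by gene identifier.

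Control probe sets (64) were left out, log2(signal + 16) was taken, which makes differences of dim genes smaller, and the lowest 40% by mean were dropped (below a signal of about 42.9). The test of Irf4 null against wild type used limma 3.58.1 (R 4.3.3; eBayes with a variance trend), Benjamini-Hochberg over 27022 probe sets, threshold 0.05; the fit was tested on simulated data. The number of arrays limits the precision. Per-array class levels and medians are descriptions. Members, lists and the Xist-high split (signal over 1000) were chosen with earlier results of these data known. Named from the further lists were called genes (at most 4) or the 2 with the smallest adjusted p, and from marker lists sums only. Further platelet genes with an unadjusted p below 0.05 were named as well. The GATA letters were widened after the promoters were seen. Figures were drawn with matplotlib 3.10.9.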

Additional observations from a re-analysis of the deposited data

Results flagged for a closer look

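Among 58 tests of 1 array against the other 3 of its genotype (29 genes, both genotypes, Dixon's test at the 95% level on log2(signal + 16)), 2 arrays stood apart, where chance flags about 1 in 20. Cpox read 907 on wild-type array 2 against 594 to 625 on the other wild-type arrays. Sptb read 5.14 on wild-type array 3 against 72.1 to 93.7 on the others. On that scale no erythroid value of Irf4 null array 3 met the criterion. On the untransformed signals, a scale added after the values were seen, that array stood apart for 5 genes: Trim10, Epb42, Slc4a1, Tfrc and Tspo2, with gaps of 0.885, 0.882, 0.856, 0.855 and 0.838 of the range.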

How the results depend on the processing

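No erythroid gene passed under any of the 25 alternatives run, and the erythroid median difference ranged from -0.19 to 0.42, so its sign is not settled; with the shared globin probe sets added, a choice made after seeing the data, it was 0.18. The platelet median stayed positive, at 0.24 to 0.67. The 2 platelet calls became 0 without a filter, with arrays set to a common median, without the variance trend, with a term for Xist-high, in the Xist-low arrays alone and at a threshold of 0.01, 3 with array weights (Gp1bb added), and 1 with robust variance estimates, with a gene's probe sets averaged and in the Xist-high arrays alone. Both fits within an Xist class leave 1 genotype with 1 array, assumed to vary like the other, so their counts say nothing about stability. Leaving out 1 array gave 0 to 4 calls. With the replicate number as a block 0 platelet genes passed. Whether the numbers pair the samples is not settled. Deviations of same-numbered arrays correlated at 0.24, 0.28, -0.03 and -0.08, and so few correlations cannot decide it. The block ended the call of Vwf (limma, adjusted p = 0.0733) but not of Zfpm1 (0.0421). Within the Xist-high arrays, where Irf4 null array 1 stands alone against 3 wild-type arrays, the platelet median was 0.67 and erythroid minus platelet level -0.96. Scaling moved the median of all probe sets by at most 0.06 log2 units. MAS5 files without detection calls leave dim values, such as those of Hba-a1, without a floor, and 4 arrays a genotype leave erythroid differences of 2-fold within most intervals.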
